A study of Danio rerio with 12 samples.

Results

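The assembly factors of the mitochondrial respiratory chain are described here in zebrafish (Danio rerio) melanomas. The 48 genes were taken by name from the 27827 genes of the deposited table: the factors that build complexes I to V, factors that act on the mitochondrial messages and on membrane insertion, and the LYR motif (lyrm) genes. All 48 passed the filter on low counts, with raw counts from 73 to 13309 per library, so this filter lost none. The lowest mean normalized count of any gene in the deposited table was 5.08. Assembly factors of a lower level, if any, could not be seen here. PolyA RNA of 12 melanomas was sequenced, 6 labelled MiniCoopR-GFP (the GFP group) and 6 labelled MiniCoopR-MyrRSK (the MyrRSK group). The MiniCoopR vector returns mitfa, the master regulator of melanocytes, to fish that lack it, and carries a second gene under the mitfa promoter. That gene is the fluorescent protein GFP in the controls and MyrRSK in the other group, RSK being the kinase of ribosomal protein S6 downstream of ERK. All 12 tumours carry the vector, and only its insert differs by the labels. The sources used here do not give other alleles of the hosts, their age or sex, or any pooling. They also do not say that each melanoma came from another fish, so the p-values rest on the spread among these libraries, which may be technical.

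The respiratory chain is assembled in the mitochondrial inner membrane from subunits encoded in the nucleus and in the mitochondrion. Assembly factors are not part of the finished complexes. They insert haem, copper, flavin and iron-sulphur groups, hold partly built modules together and place subunits in the membrane, and loss of many of them in humans causes mitochondrial disease. Cytochrome c oxidase (complex IV) has the longest list here, and its core needs copper centres and haem a.

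The libraries held 61750434 to 72257237 gene counts. Of the melanocyte markers, 11 were measured and none was at 0 in any library. Their summed level ran from 1842 to 36299 CPM (gene counts scaled to a common library size) in GFP and from 4132 to 18134 CPM in MyrRSK melanomas. Because these are bulk tumours, fewer cells of a type and less RNA per cell cannot be told apart.

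Of the 48 assembly factors, cox17 rose in MyrRSK melanomas and 0 fell at an adjusted p under 0.05 (edgeR's quasi-likelihood test, adjusted by Benjamini-Hochberg over 26866 genes). Among all tested genes 0.29% were higher and 0.115% lower by the same rule. At an unadjusted p under 0.05, 8 assembly factors (16.7%) were higher and 2 were lower, against 7.18% and 8.33% of all tested genes. The log2 fold change was positive for 38 of 48 members (79.2%), against 44.9% of all tested genes. The median of the members was 0.21, and that of all tested genes was -0.07. The 6 MyrRSK values were all higher than the 6 GFP values in 4 members and all lower in 0, against 1.01% and 0.722% of all tested genes. DESeq2 called 4 members higher and 0 lower (2.91% and 2.83% of all genes), with 10 and 2 at an unadjusted p under 0.05 (8.16% and 10.1%). By limma-voom 1 and 0 were called (0.32% and 0.0744%), with 11 and 1 unadjusted (8.12% and 6.33%). A fit with the replicate number as a term called 0 members (0.0223% and 0% of all genes), with 5 and 0 unadjusted (6.9% and 4.88%). The authors' deposited table lists 4 of the 48 as higher and 0 as lower at an adjusted p under 0.05, with 2.88% and 2.29% of its genes with an adjusted p.

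**Figure D1:**
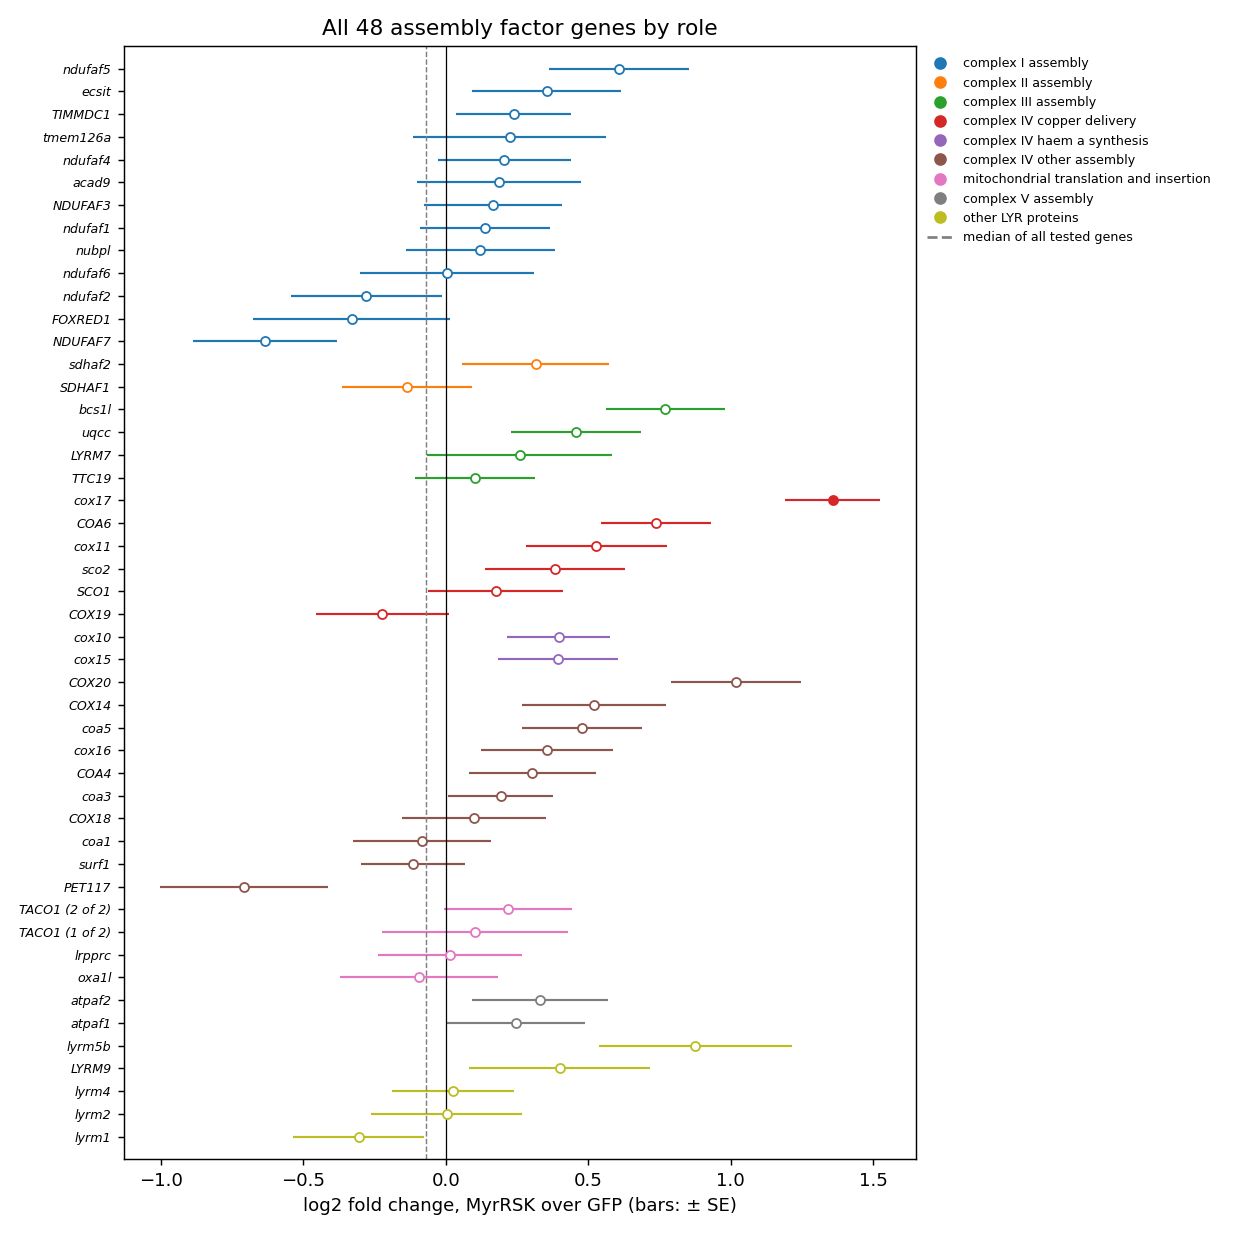
The log2 fold change of each of the 48 assembly factors (MyrRSK over GFP, horizontal axis) is drawn with its SE, in blocks by role. The filled point is cox17, the member past the adjusted threshold, and the dashed line is the median of all tested genes (-0.07). Of the points, 38 lie to the right of 0 and 10 to the left.

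Copper delivery to complex IV held the member that passed. The gene cox17 (ENSDARG00000069920, chromosome 9, 22269034 to 22271590, Zv9) encodes the chaperone that takes copper to both routes into cytochrome c oxidase in the intermembrane space. Its level was 16.99, 22.3 and 24.3 CPM (lowest, median and highest) in GFP and 40.9, 57.6 and 63.4 CPM in MyrRSK melanomas. The groups did not overlap, and the lowest MyrRSK value was that of MyrRSK 4. This was a 2.56-fold rise, 1.36 ± 0.17 on the log2 scale (SE), with an adjusted p of 0.0165 in edgeR and 3.03e-13 in the authors' deposited table. The call ended in 4 of 23 alternatives: without GFP 2 (1.32, adjusted p = 0.0537), with the replicate number as a term (1.36, adjusted p = 0.0651), without both MyrRSK 2 and MyrRSK 4 (1.42, adjusted p = 0.0746) and with a muscle score as a covariate (1.35, adjusted p = 0.103). Over all 26866 tested genes these 4 fits called 1, 6, 1 and 1 higher, in that order, and 0 lower. In all 23 alternatives tried the value of cox17 was positive, and at most 1.43. Its adjusted p over them ran from 3.33e-13, with DESeq2, to 0.103.

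The other copper genes differed from GFP by less. COA6 (ENSDARG00000092677, chromosome 4, 4705393 to 4707866), a small intermembrane protein of the same route that serves the COX2 subunit, stood at 7.49, 9.97 and 11.7 CPM (lowest, median, highest) in GFP and at 13.6, 15.8 and 23.3 CPM in MyrRSK melanomas. The groups did not overlap, but the difference of 0.74 ± 0.19 (log2) had an adjusted p of 0.0991 in edgeR. DESeq2 called it (adjusted p = 0.00431), and the adjusted p ran up to 0.592 over the alternatives. cox11, which carries copper to the COX1 subunit, had a log2 fold change of 0.53 ± 0.25, and the metallochaperone genes sco2 and SCO1 had 0.38 ± 0.25 and 0.17 ± 0.24. COX19, a partner of COX11 in yeast and human cells, had the only negative value (-0.22 ± 0.23, adjusted p = 0.689), with 10.5 ± 3.21 CPM in GFP and 9.04 ± 1.47 CPM in MyrRSK melanomas (SD, n = 6). None of these 4 passed, and their groups overlapped. The log2 CPM of cox17 less the mean of the other 5 copper genes was 1.11 to 1.77 in GFP and 1.91 to 2.79 in MyrRSK libraries. This difference between genes is not corrected for length, so only its shift between groups can be read, and it is given without a test because cox17 was singled out by its own values.

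**Figure D2:**
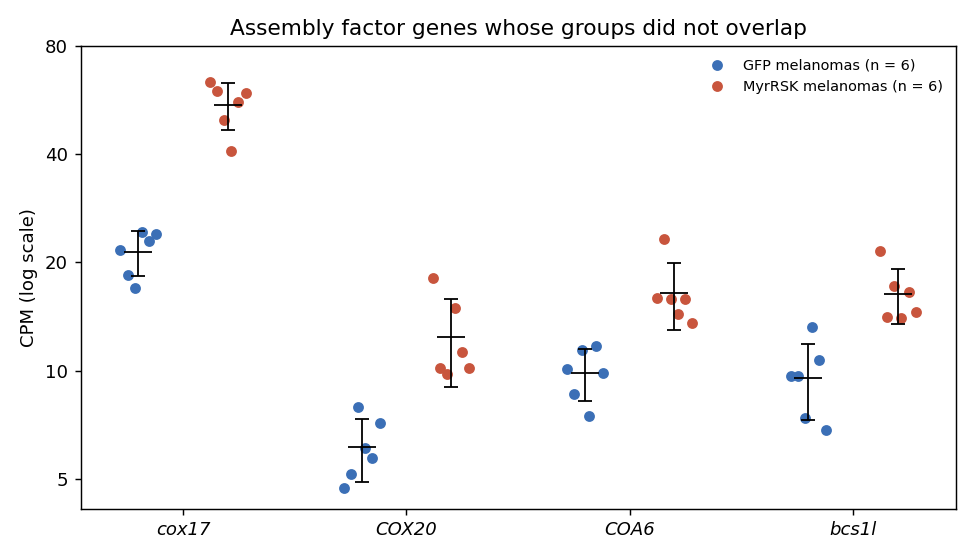
CPM on a log axis for the 4 assembly factors whose groups did not overlap, 1 point per library, with bars for the mean and SD of 6 libraries. For cox17 the GFP melanomas lie between 16.99 and 24.3 CPM and the MyrRSK melanomas between 40.9 and 63.4 CPM.

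Among the other complex IV factors, COX20, the chaperone of newly made COX2 before it receives copper, had the largest difference. Its level was 4.70, 5.91 and 7.93 CPM (lowest, median, highest) in GFP and 9.81, 10.7 and 18.1 CPM in MyrRSK melanomas. The groups did not overlap, and MyrRSK 1 and MyrRSK 4 were the highest libraries. On the log2 scale the difference was 1.02 ± 0.23 with an adjusted p of 0.0678 in edgeR and 0.000703 in DESeq2, and the alternatives reached 0.475. The gene (ENSDARG00000018800) lies on an unplaced scaffold of Zv9. coa5, a factor of an early step, had 5.83, 7.87 and 9.44 CPM in GFP and 7.25, 11.4 and 12.96 CPM in MyrRSK melanomas, with 5 of 6 MyrRSK values higher than any GFP value. Its log2 fold change of 0.48 ± 0.21 did not pass (adjusted p = 0.296).

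PET117 went the other way within the same role. It was 1.08, 2.70 and 3.42 CPM in GFP and 1.28, 1.51 and 1.87 CPM in MyrRSK melanomas (log2 fold change -0.71 ± 0.30, adjusted p = 0.271). In 5 of 6 GFP libraries it was above all MyrRSK libraries, and GFP 6 was below them. The 7 remaining genes of this role had log2 fold changes from -0.12 for surf1, a factor of an early step whose loss causes Leigh syndrome in humans, to 0.52 for COX14, which stabilises newly made COX1. Between them lay coa1 (-0.08), COX18 (0.10), coa3 (0.19), COA4 (0.30) and cox16 (0.36), and none passed. By edgeR without adjustment (p under 0.05), 2 of the 10 genes of this role were higher and 1 was lower, against 7.18% and 8.33% of all tested genes.

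The genes for haem a had like values. cox10, which farnesylates haem, was 14.9, 25.05 and 28.0 CPM in GFP and 26.6, 30.6 and 35.1 CPM in MyrRSK melanomas, and cox15, which oxidises the product to haem a, was 19.1, 21.8 and 26.8 against 20.3, 26.5 and 42.2 CPM. For cox10, 5 of 6 MyrRSK values were higher than any GFP value, and for cox15 3 were. The log2 fold changes were 0.40 ± 0.18 (adjusted p = 0.312) and 0.39 ± 0.21 (adjusted p = 0.396), so neither passed.

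In complex III, bcs1l (ENSDARG00000012295, chromosome 9, 39452221 to 39459485) encodes the membrane ATPase that places the Rieske iron-sulphur protein. It was 6.84, 9.66 and 13.2 CPM in GFP and 14.0, 15.6 and 21.5 CPM in MyrRSK melanomas, and the groups did not overlap. It differed by 0.77 ± 0.21 on the log2 scale, with an adjusted p of 0.103 in edgeR and 0.00881 in DESeq2, and up to 0.449 over the alternatives. The other 3 genes act before and after that step. uqcc, needed for cytochrome b in humans, differed by 0.46 ± 0.23 (log2), LYRM7, which holds the Rieske protein for insertion, had 0.26 ± 0.32, and TTC19, which clears its fragments, had 0.10 ± 0.21. None passed, and TTC19 changed sign without MyrRSK 4 or when the muscle score was a covariate, down to -0.03.

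For complex I the log2 fold change was above 0 for 10 of its 13 genes and below 0 for 3, with a median of 0.17. None passed with edgeR, DESeq2 or limma-voom. By edgeR 1 (7.69%) was higher and 1 was lower at an unadjusted p under 0.05, near the 7.18% and 8.33% of all tested genes. ndufaf5, a modifier of the NDUFS7 subunit, was 9.10, 16.4 and 20.9 CPM in GFP and 14.4, 24.89 and 36.4 CPM in MyrRSK melanomas (0.61 ± 0.25, adjusted p = 0.253). NDUFAF7, a mitochondrial methyltransferase, was 9.60, 10.6 and 23.7 CPM in GFP and 6.81, 8.58 and 9.71 CPM in MyrRSK melanomas (-0.63 ± 0.25, adjusted p = 0.250). For ndufaf5, 5 of 6 MyrRSK libraries were above all GFP libraries, and for NDUFAF7, 4 of 6 were below all of them. The high NDUFAF7 value was that of GFP 1, and without it the value was -0.37, with an adjusted p of 0.375 in edgeR.

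Of the complex that builds the membrane arm of complex I, the genes grouped here with complex I had small positive values. They were 0.35 ± 0.26 for ecsit, 0.24 ± 0.20 for TIMMDC1, 0.19 ± 0.29 for acad9 and 0.14 ± 0.23 for ndufaf1. tmem126a, ndufaf4, NDUFAF3, nubpl and ndufaf6 lay between 0.01 and 0.22. The late factors ndufaf2 (-0.28 ± 0.27) and FOXRED1 (-0.33 ± 0.35) were the other negative members. None of these 11 passed, and the 2 groups overlapped in each.

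Complex II had 2 members under the naming rule. sdhaf2, which attaches flavin to SDHA, was 8.86, 15.4 and 23.6 CPM in GFP and 12.9, 19.0 and 23.9 CPM in MyrRSK melanomas (0.32 ± 0.26). SDHAF1, which serves the iron-sulphur subunit SDHB, was 2.15, 2.70 and 3.23 CPM against 1.96, 2.44 and 3.06 CPM (-0.14 ± 0.23). The chaperones of the ATP synthase head, atpaf1 and atpaf2, had log2 fold changes of 0.25 ± 0.24 and 0.33 ± 0.24. They were -0.01 and -0.06 when a score of muscle markers was a covariate. The groups overlapped in all 4 of these genes and none passed.

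The 4 genes that act on mitochondrial messages and on insertion had log2 fold changes from -0.09 to 0.22. lrpprc, which stabilises mitochondrial mRNA, stood at 127 ± 41.5 CPM in GFP and 128 ± 37.5 CPM in MyrRSK melanomas (log2 fold change 0.02 ± 0.25). The inner membrane insertase gene oxa1l was 20.5, 27.5 and 58.8 CPM in GFP and 16.5, 30.4 and 37.5 CPM in MyrRSK melanomas (-0.09 ± 0.28). Its sign changed without GFP 4, the library with the highest value, or without MyrRSK 2. The TACO1 gene, a translational activator of COX1, is listed as 2 copies, with log2 fold changes of 0.10 ± 0.33 and 0.22 ± 0.22. The sources used here do not say how reads shared by such copies were counted, so the 2 values may not be separate.

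Of the other LYR motif genes, lyrm5b had 1.096, 2.28 and 4.05 CPM in GFP and 2.67, 4.63 and 5.92 CPM in MyrRSK melanomas. The human counterpart regulates the electron transfer flavoprotein. The difference was 0.88 ± 0.34 on the log2 scale (adjusted p = 0.233 in edgeR), and 4 of 6 MyrRSK values were higher than any GFP value. lyrm4, a part of the iron-sulphur cluster machinery, had 0.03 ± 0.22, lyrm2 0.00 ± 0.26, LYRM9 0.40 ± 0.32 and lyrm1 -0.31 ± 0.23. None of the 5 passed.

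The level of the members as a set differed from library to library. The median over the 48 genes of the deviation from each gene's mean log2 CPM was -0.37 in GFP 1, -0.27 in GFP 2 and -0.25 in GFP 6, but 0.23 in GFP 4 and 0.09 in GFP 5. In MyrRSK libraries it was highest in MyrRSK 1 (0.41) and lowest in MyrRSK 3 (-0.07), so the groups overlapped. GFP 4 held the highest GFP value for 22 of 48 members, and MyrRSK 1 the highest MyrRSK value for 22. Without MyrRSK 1 the median log2 fold change of the members was 0.15 and 5 members were higher at an unadjusted p under 0.05, where all genes had a median of -0.07 and 1674 of 26866 were higher. GFP 1 and GFP 2 had the lowest median deviations, so leaving them out lowers the members' median by the choice itself. Without both, that median was 0.14 and 28 of 48 members were positive, against 48.1% of all genes. At an unadjusted p under 0.05, 5 members were higher and 0 lower, against 7.62% and 8.52% of all genes. In that fit cox17 was still called (1.32, adjusted p = 0.0389 in edgeR), with 0.0856% of all genes higher and 0.0261% lower. By role, the mean deviation of the copper genes was negative in all 6 GFP libraries (-0.52 to -0.03) and positive in all 6 MyrRSK libraries (0.07 to 0.35). Without cox17 it ran from -0.50 to 0.07 and from -0.07 to 0.28, so these ranges met. For the complex I factors the ranges were -0.28 to 0.32 and -0.24 to 0.40.

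**Figure D3:**
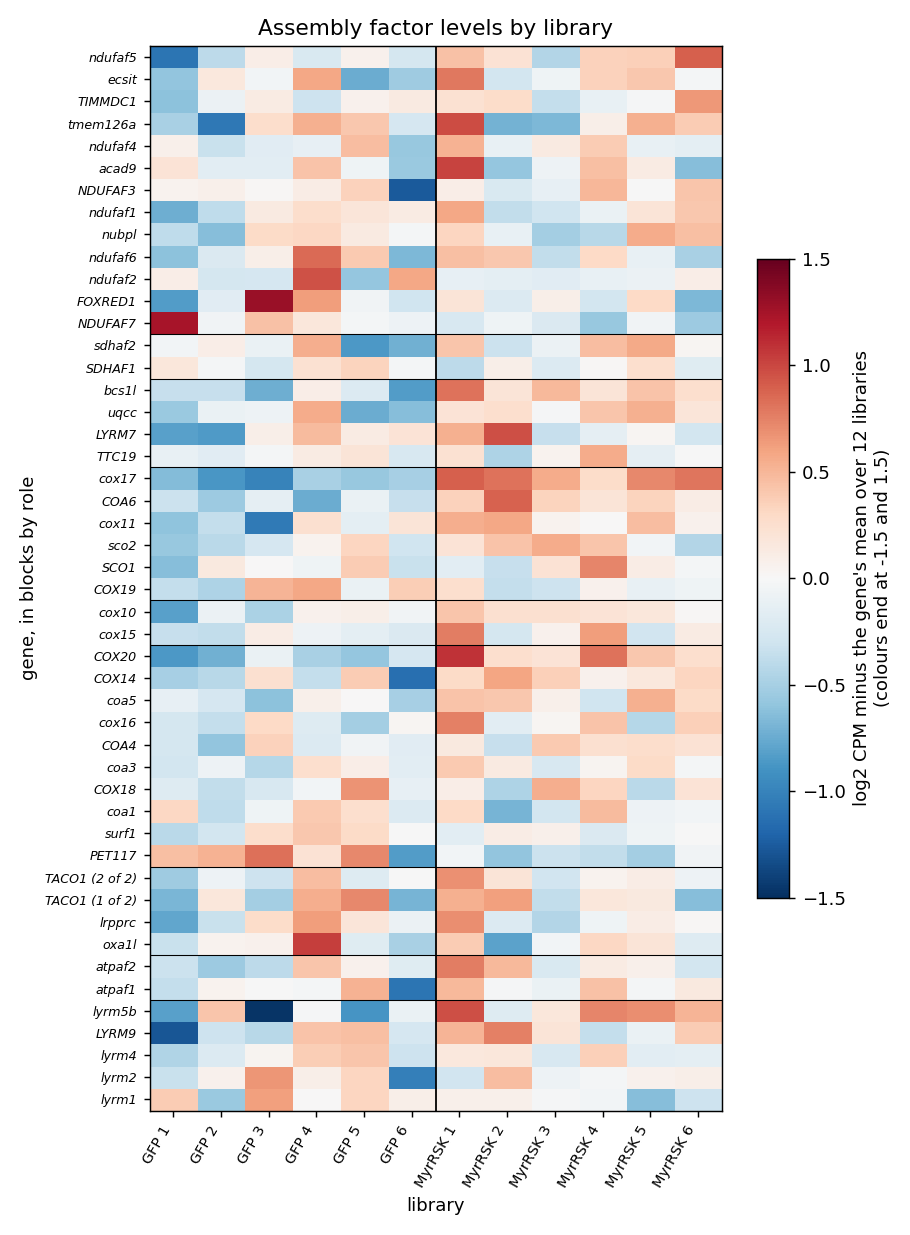
Each row is an assembly factor, in blocks by role, and each column a library. Colour gives the log2 CPM minus the mean of that gene over 12 libraries. The row of cox17 is blue in all 6 GFP and red in all 6 MyrRSK libraries, and GFP 4 and MyrRSK 1 are the columns with the most high values of their group.

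Of 32 tested markers of skeletal muscle, 28 had positive log2 fold changes, against 44.9% of all tested genes. The mean log2 CPM of 32 tested markers ran from -1.13 to -0.20 in GFP and from -0.75 to 3.37 in MyrRSK melanomas, highest in MyrRSK 4 and MyrRSK 2. Of the 32, 3 passed as higher and 0 as lower with edgeR (0.29% and 0.115% of all tested genes). At an unadjusted p under 0.05, 24 (75%) were higher, against 7.18% of all tested genes. By DESeq2 20 of them passed as higher, and by limma-voom 0 (2.91% and 0.32% of all genes). The summed level of the 33 markers in the table was 103 to 1240 CPM in GFP and 244 to 1600 CPM in MyrRSK libraries. Of that sum atp2a1 alone made up 75.8%. Its mean was 498 CPM in GFP and 472 CPM in MyrRSK libraries (log2 fold change -0.08 ± 0.68). Most of the 32 tested markers averaged under 1 CPM in GFP, so their mean log2 CPM rests largely on genes of low level. At most 1 of the 33 was at 0 in any library. When the muscle score was a covariate, 0 assembly factors passed (0.00372% of all genes did as higher and 0% as lower). At an unadjusted p under 0.05, 3 were higher and 0 lower, against 4.9% and 4% of all genes. In that fit 28 of 48 members were positive, against 44.9% of all genes. The median of the members was then 0.05, against -0.08 for all tested genes. Those 3 were cox17 (1.35 ± 0.24, adjusted p = 0.103 in edgeR), bcs1l (0.81 ± 0.30) and COX20 (0.89 ± 0.35), and COA6 had 0.58 ± 0.28.

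MyrRSK 3 is the MyrRSK library whose muscle score (-0.75) lay within the GFP range. In that library the median deviation of the members was -0.07, and cox17 was 49.9 CPM, against 16.99 to 24.3 CPM in GFP. In the other MyrRSK libraries the score was higher than in any GFP library. The fit with the score as a covariate can therefore tell score and insert apart only in part. Without both MyrRSK 2 and MyrRSK 4, a setting added after the data were seen, 7 members were higher at an unadjusted p under 0.05 and the median was 0.24, against 5.6% of all genes higher and 5.56% lower. In that fit 0 members passed with edgeR, and 1 of all genes did (0.00372%). The part of muscle RNA in the differences of cox17 and of the other members was not tested beyond these fits. Leukocyte markers summed to 497 to 2215 CPM in GFP and 1482 to 3611 CPM in MyrRSK libraries. Of these, 11 of 12 had a positive log2 fold change, against 44.9% of all tested genes. Hepatocyte markers summed to 7.59 to 27.4 and 13.6 to 183 CPM, but tfa alone made up 81.9% of that sum, and 6 of the 10 tested were positive, with a median of 0.02. Other marker lists had more negative than positive values. The log2 fold change was negative for 8 of 11 keratinocyte, 8 of 10 erythrocyte, 6 of 7 endothelium and 5 of 6 cardiac muscle markers tested. It was also negative for 9 of 11 melanocyte markers, with a median of -0.32. Among all tested genes it was negative for 14802 of 26866, with a median of -0.07. The part of any of these lists in the results was not tested.

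**Figure D4:**
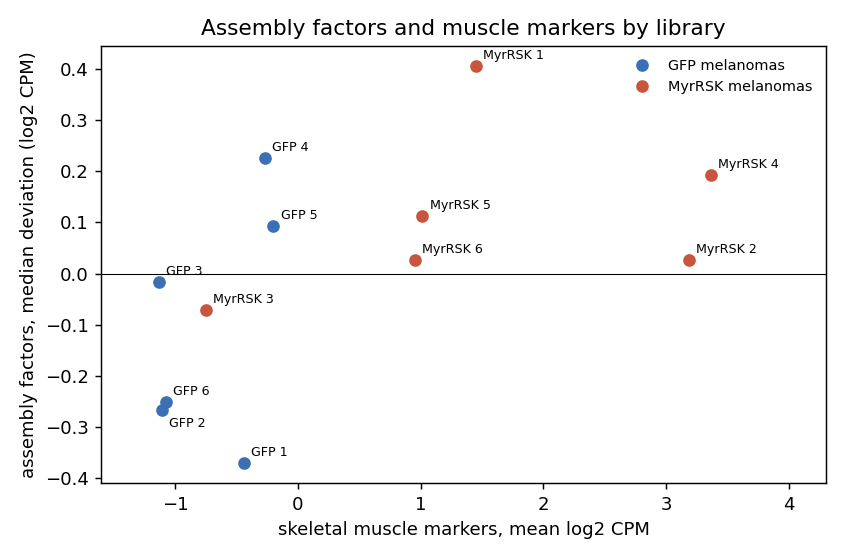
Each point is a library. The horizontal axis is the mean log2 CPM of skeletal muscle markers and the vertical axis the median deviation of the 48 assembly factors from their means. MyrRSK 3 (muscle score -0.75, deviation -0.07) lies among the GFP libraries on both axes, and MyrRSK 1 has the highest deviation (0.41). MyrRSK 4 and MyrRSK 2, with the highest muscle scores (3.37 and 3.19), have deviations of 0.19 and 0.03. These are lower than that of GFP 4 (score -0.27, deviation 0.23).

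Of the 48 genes, 12 overlap the annotated span of another gene, and 3 lie wholly inside one. PET117 lies inside csrp2bp, whose log2 fold change was -0.49 ± 0.22, and COX19 inside si:ch211-196f5.2 (-0.53 ± 0.24). Neither host gene passed. NDUFAF3 lies inside zgc:112334 (0.05 ± 0.17). COA6 shares 533 bases with ptprz1b, for which the difference was 0.88 ± 0.32 (adjusted p = 0.206 in edgeR). lyrm5b shares 614 bases with RNF111 (2 of 2), at 0.48 ± 0.22. The sources used here do not say whether the counting used strand, so reads of these pairs may not be told apart. cox17, COX20 and bcs1l overlap no other listed gene.

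Set beside the subunits they serve, the assembly factors had a lower median than complex I and complex IV subunits. By name, 41 complex I subunit genes had a median log2 fold change of 0.37, with 38 positive (92.7%). At an unadjusted p under 0.05, 17 were higher (41.5%, against 7.18% of all tested genes). The names bring in ndufa4 (1.19), whose product is now counted with complex IV, and the related ndufa4l2 (-0.98) and NDUFA4L2 (2 of 2) (-0.27). The 16 complex IV subunit genes had 0.30, with 12 positive and 5 higher, and the 19 of complex V had 0.21, with 13 and 4. Of these 19, atp5s (-0.07) is now named DMAC2L and may not be a subunit. The 9 of complex III had 0.18, with 7 positive and 2 higher, and the 5 of complex II had 0.09, with 4 and 0. None of these subunit genes was lower at that level, against 8.33% of all tested genes, and 0 of them passed with edgeR or limma-voom. DESeq2 called 4 of complex I, 1 of complex III, 4 of complex IV and 2 of complex V higher, against 2.91% of all genes. The difference between assembly factors and subunits was not tested, since genes are not replicates.

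The naming rule missed assembly factors that the table lists under other names. There are 8 whose current names fit the rule, and they were found after the values were seen. Of these 7 were positive, with a median of 0.37. By edgeR 0 passed and 2 (25%) were higher at an unadjusted p under 0.05, against 7.18% of all tested genes. DESeq2 called 1 higher, against 2.91% of all genes. The largest positive value was that of the complex II factor SDHAF4 (listed as C13H6orf57, chromosome 13), whose product protects the free flavin-bound SDHA. Its mean was 12.4 CPM in GFP and 21.6 CPM in MyrRSK melanomas, and the groups did not overlap, but the difference of 0.80 ± 0.23 (log2) had an adjusted p of 0.115 in edgeR. The complex II factor SDHAF3 (listed as acn9) had -0.75 ± 0.68. A further 21 genes with unrelated names, counted as assembly factors in a wide sense, had a median of 0.17, with 16 positive. None of these passed with edgeR, DESeq2 or limma-voom. By edgeR without adjustment (p under 0.05) 1 was higher and 1 lower, against 7.18% and 8.33% of all tested genes. These were tmem177 (0.41 ± 0.19) and AFG3L2 (-0.56 ± 0.23).

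**Figure D5:**
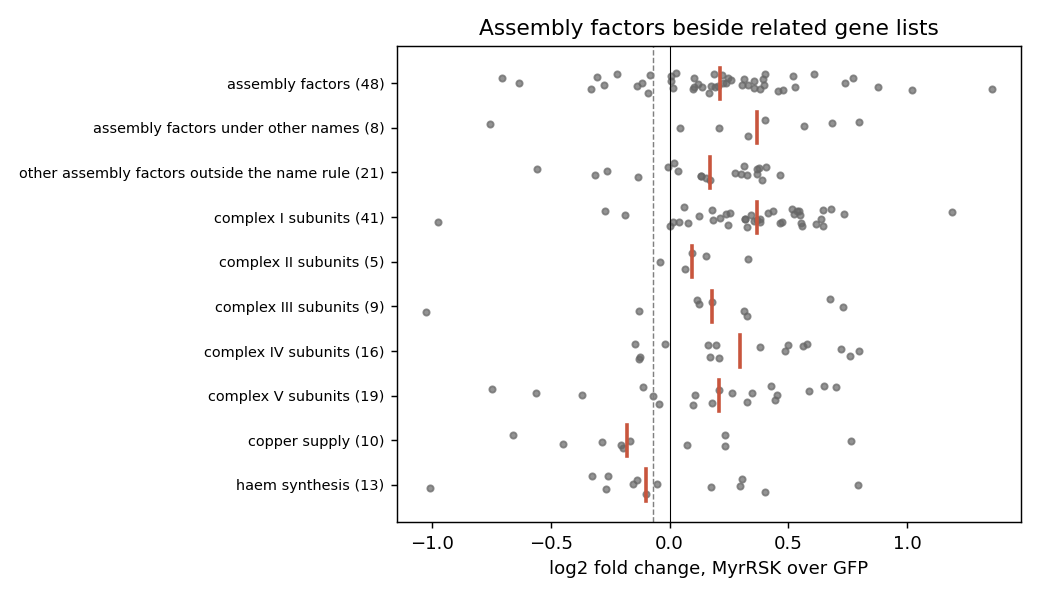
Each point is a gene and each bar the median of its list, with the number of genes in parentheses. The horizontal axis is the log2 fold change of MyrRSK over GFP, and the dashed line is the median of all tested genes (-0.07). The medians of the lists of assembly factors (0.21, 0.37 and, in the wide sense, 0.17) and of subunits lie to its right. Those of copper supply (-0.18) and haem synthesis (-0.10) lie to its left.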

How the data were processed

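PolyA RNA of 12 melanomas was sequenced. The submitters' processing notes name STAR 2.6.1d, HTSeq 0.6.0, DESeq2 and Zv9, with no order or settings. The deposited raw columns are whole-number counts per gene, not normalized. Per the file headers, the authors also deposited a normalized signal, equal in each library to the count over a constant, log2 fold changes with SE, a test score and p-values. The 26866 genes that filterByExpr kept were fitted in edgeR 4.0.16 (R 4.3.3) by robust quasi-likelihood, after TMM scaling, on the insert alone. Each SE is the log2 fold change over the root of F. CPM use TMM-scaled library sizes and log2 CPM a prior count of 1. DESeq2 1.42.0 and limma 3.58.1 served as alternatives, with other scalings, filters, covariates and left-out libraries. No 2 libraries were alike within sampling noise (smallest of 66 chi-square values per degree of freedom 187). The fit was also tested on simulated counts, with no result given here, so nothing about the calls is read from that test. Members and lists were chosen with earlier results of these data known. The members named by rule are those called, those at an unadjusted p under 0.05, and the largest and smallest log2 fold change of each role, and the others are given by their role. Current names from a table of gene names covered 41 of 48 members. Sequences of the members are not used here, and gene lengths neither, so levels are not compared between genes. Figures were drawn with matplotlib 3.10.9.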

Additional observations from a re-analysis of the deposited data

Results flagged for a closer look

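In 3 of 40 groups of 6 libraries (20 named members, each in GFP and MyrRSK), the highest or lowest library stood further from its nearest neighbour, as a share of the group's range in log2 CPM, than Dixon's critical value allows, and chance alone flags about 1 in 20 groups. COA6 was 23.3 CPM in MyrRSK 2, against 13.6 to 15.9 CPM in the other 5 MyrRSK libraries. The overlapping gene ptprz1b was also highest there, at 31.9 CPM. Without MyrRSK 2 the log2 fold change of COA6 was 0.61 (adjusted p = 0.166 in edgeR). PET117 was 1.08 CPM in GFP 6, against 2.24 to 3.42 CPM in the other 5 GFP libraries, and without GFP 6 its log2 fold change was -0.87 (adjusted p = 0.117 in edgeR). oxa1l was 58.8 CPM in GFP 4, against 20.5 to 30.0 CPM in the other 5 GFP libraries.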

How the results depend on the processing

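Of 20 named members, 16 kept their sign in all 23 alternatives, and TTC19, atpaf1, atpaf2 and oxa1l, which were not called, did not. The median of the members stayed positive, from 0.05 with the muscle score to 0.28 without GFP 5. Leaving out 1 library gave 0 to 1 member called higher (0 without GFP 2), 0 lower, 5 to 11 higher and 0 to 2 lower at an unadjusted p under 0.05 (1674 to 2043 and 1782 to 2442 of all 26866 genes), with medians of 0.15 to 0.28. Over all genes these fits called 1 to 104 higher and 0 to 84 lower, against 78 and 31 with all libraries. DESeq2 called 798 and 775 genes and 4 members higher. limma-voom called 20 genes lower and had 1 member lower unadjusted. A mean count of at least 100 left 65 genes lower. Without both GFP 1 and GFP 2, 23 genes were higher and 7 lower, with 5 members higher and 0 lower unadjusted. The muscle score left 1 gene higher and 0 lower (1316 and 1074 unadjusted), 0 members called, and 3 higher and 0 lower unadjusted. Without both MyrRSK 2 and MyrRSK 4, 1 gene was higher and 0 lower (1505 and 1494 unadjusted), with 0 members called and 0 lower unadjusted. The replicate number as a block gave 6 genes higher and 0 lower (1855 and 1310 unadjusted), 0 members called, 5 higher and 0 lower unadjusted, and cox17 at 1.36 (adjusted p = 0.0651 in edgeR). Same-numbered libraries did not deviate together (correlations -0.15 to 0.10, 0 of 6 GFP libraries best with their own number). These values show no pairing by number, but a check over all genes cannot exclude a weaker link between such libraries. Leaving out libraries or adding a term leaves fewer residual degrees of freedom, and the muscle score differs between the groups. The causes of these changes were not tested. The lowest member count was 73 in a library, and what makes up the spread within a group was not tested.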

Other observations

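Genes of copper supply and haem synthesis were set beside all tested genes, which had a median of -0.07 and 44.9% positive. Of 10 copper supply genes 4 had a positive log2 fold change, with a median of -0.18, and of 13 haem synthesis genes 5 did, with a median of -0.10. None of them passed with edgeR or limma-voom, and DESeq2 called 1 haem synthesis gene higher (2.91% of all genes). The genes with an unadjusted p under 0.05 in edgeR, chosen after their values were seen, were the cytosolic copper chaperone gene ATOX1 (-0.66 ± 0.28, adjusted p = 0.273 in edgeR) and slc25a38b, a mitochondrial glycine carrier gene of haem synthesis (0.79 ± 0.22, adjusted p = 0.115 in edgeR).

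The log2 fold change also differed by chromosome. The median of all tested genes ran from -0.30 on chromosome 24 to 0.24 on chromosome 25, and was 0.20 on chromosome 9, where 66.2% of 939 genes were positive. Chromosome 9 holds cox17, bcs1l and coa5, and chromosome 12 (median 0.14) holds 5 members, all 8 of them positive. Chromosome 4 (median -0.23) holds 2 members, COA6 and sco2, with positive values, and chromosome 24 holds 2 with negative values. On the 9 chromosomes with a positive median, 21 of 23 members were positive, and on the 16 with a negative median 15 of 23 were. Of all tested genes, 50.5% to 68.8% were positive on each of the former and 30% to 49.6% on each of the latter. COX20 and TACO1 (2 of 2) lie on unplaced sequences and are not in these counts. Within 1 Mb of cox17, 28 of 40 tested genes were positive, with a median of 0.35, and 1 was called higher. Around bcs1l the median of 42 genes was 0.12, and around COA6 that of 52 genes was 0.08. Around coa5 and lyrm5b the medians of 30 and 55 genes were 0.27 and 0.23. Around NDUFAF7 and PET117, members with negative values, those of 43 and 29 genes were -0.28 and -0.11. Around ndufaf5 (46 genes) and cox10 (23 genes) the medians were -0.04 and -0.002. COX20 had 2 tested neighbours, with a median of 0.50. The part of chromosome position in the values of the members was not tested.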
